A study of Mus musculus with 6 samples.

Results

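The genes described here lie beside Omp on mouse chromosome 7: Capn5, Myo7a, Gdpd4, Pak1, Clns1a, Rsf1, Ints4, B3gnt6, Acer3 and Tsku. Of these 10 genes, 7 had at least 1 probe set that the platform annotation assigns to that gene alone, giving 17 probe sets of the 45101 on the array, and 18194 genes were named in this way over the whole array. Gdpd4, Pak1 and Tsku were named by no such probe set and were not analysed here. A probe set is a group of short oligonucleotides that together read out 1 transcript or a few related ones.

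Total RNA came from the olfactory epithelium, which lines part of the nose and contains the sensory neurons for smell, of OMP-GFP mice. As background, this allele puts green fluorescent protein in place of the Omp coding region, and Omp encodes an abundant protein of mature olfactory neurons. There were 3 arrays labelled homozygous, in which both copies of Omp carry the insertion, and 3 labelled heterozygous, in which 1 copy does. Every sample carried at least 1 targeted copy, and there was no wild-type group. The labels give neither age, sex, strain nor the number of animals per RNA sample, so each p-value measures only the spread between these samples.

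A targeted allele is inherited together with the stretch of chromosome on which it was made, and genes on that stretch travel with it until recombination separates them. The comparison asked whether the neighbours of Omp differed in signal between the groups. The labels name neither the embryonic stem cells nor the number of backcrosses, and the strain origin of the stretch was not tested. Because each sample is a whole tissue, fewer cells of a type and less RNA per cell cannot be told apart.

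In the RefSeq gene order, Capn5 comes right before Omp and its annotated span contains Omp. Myo7a is 2 protein-coding places from Omp on that side, followed by Gdpd4 and Pak1 at 3 and 4 places, Clns1a at 6, Rsf1 at 7 and Ints4 at 9. On the other side B3gnt6 is the next gene, with Acer3 at 2 places and Tsku at 3.

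Among the flanking genes, Myo7a had the largest difference, and the RefSeq (GRCm38.p6) sequences before its 2 annotated starts are shown for that reason. Each covers the 250 bases upstream of the start, on the minus strand, at chr7:98119494-98119743 for start 1 and chr7:98109249-98109498 for start 2. Capitals mark GGGCGG on either strand, the GC box bound by Sp1-type factors, read on the opposite strand as CCGCCC.
Myo7a start 1: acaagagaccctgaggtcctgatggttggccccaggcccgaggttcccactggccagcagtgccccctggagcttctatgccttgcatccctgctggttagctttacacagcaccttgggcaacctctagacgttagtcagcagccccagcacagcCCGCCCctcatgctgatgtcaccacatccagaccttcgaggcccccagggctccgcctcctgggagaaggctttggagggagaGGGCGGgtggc
Myo7a start 2: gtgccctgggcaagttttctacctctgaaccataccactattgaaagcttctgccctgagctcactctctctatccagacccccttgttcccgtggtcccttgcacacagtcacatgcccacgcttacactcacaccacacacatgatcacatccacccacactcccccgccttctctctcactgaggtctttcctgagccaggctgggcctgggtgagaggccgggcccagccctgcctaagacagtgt

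The window of start 1 held 2 matches and that of start 2 held 0. The same motif was present in 6 of the 11 windows of the 7 flanking genes that have an entry, and in 32.7% of all 32851 windows. These 7 are Acer3, Clns1a, Gdpd4, Ints4, Myo7a, Pak1 and Tsku, not the 7 genes with a probe set. Capn5, Rsf1 and B3gnt6 had no window. The windows with the motif were those of Pak1 and Tsku, whose signal was not analysed, an Acer3 window and that of Myo7a start 1. Of these 11 windows, the 2 of Tsku overlap. On both strands, the TATA box letters TATAAA were in 0 of the 11 windows and in 12.4% of all, the homeodomain letters TAATTA in 0 of the 11 and in 4.84% of all, and the E-box CANNTG in 5 of the 11 and in 66.2% of all. The windows of Myo7a had a GC content of 63.2% and 57.6%, against a median of 52.4% over all windows.

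The deposited values are MAS5 signals on a linear scale. Differences below are homozygous minus heterozygous on the scale log2(signal + 38.8), where 38.8 is the 25th percentile of all values, which understates the change of dim ones. Probe sets in the brighter 50% of the array were tested with limma, with Benjamini-Hochberg adjustment over all 22514 tested. Of the 17 probe sets, 12 were tested, covering 6 genes, and the other 5 were too dim. Array medians ran from 147.9 to 163.7, and with 3 arrays a group precision is limited.

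The library labelled heterozygous 1 stands apart at the targeted gene. At Omp probe set 1422199_at the signal was 5.7, 8.8 and 31.3 in the homozygous arrays, against 4663.8 in heterozygous 2, 9143 in heterozygous 3 and just 26.3 in the library labelled heterozygous 1. At the other Omp probe set, 1422200_at, homozygous arrays averaged 8280.2 ± 443 and heterozygous arrays 8332 ± 371 (SD, n = 3 each). No label or file says which of them reads the replaced region, so neither is an established check of the labels, which were kept. That library also had a summed signal of 19696 for the 6 measured glial markers, against 9804 to 10510 on the other arrays. The excess lay in Mbp, at 7268.5 against 655.2 to 1037.9, and Pmp22, at 4898.6 against 850.8 to 1205.6. Fabp7, at 6290.3 against 6697 to 7219.4, and Npy were lowest in that library. S100b was slightly highest there, and Sox10 lay within the range of the other arrays. In heterozygous 3 the 9 bulb and brain neuron markers summed to 2804, against 1452 to 1763 elsewhere. Those markers did not move together. Rbfox3 read 791.1 and Cplx1 738.2 there, against 49.5 to 184.2 and 140 to 307.7 elsewhere. Eomes was lowest there, at 205.2 against 310.5 to 510, and Gad2 and Reln lay within the range of the other arrays. Gad1, Tbr1, Slc17a7 and Tbx21 were highest there but dim and not tested. The 12 measured mature olfactory neuron markers summed to 66489 in heterozygous 3, against 78007 to 85742 elsewhere. Adcy3, Cidea, Cnga2, Cnga4, Gnal, Gng13, Ric8b and Stoml3 were lowest there. Ebf2 and Slc17a6 were highest there, and Omp at 1422200_at and Cngb1 lay within the range of the other arrays. The tissue label had its markers: Cnga2, the channel subunit of the odour response, read between 5968 and 8056, and Cyp2g1, a sustentacular cell enzyme, between 17796 and 18562.

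No flanking gene passed the test. Of their 12 tested probe sets, 0 passed an adjusted p of 0.05 in limma, beside 0% of all 22514, and the adjusted p of the flanking genes lay between 0.859 and 0.996. At an unadjusted p under 0.05 there was 1, Myo7a, or 8.33% of the 12, beside 5.73% of all probe sets; it was lower in homozygous arrays, as were 2.4% of all, and 0 were higher, beside 3.34%. Homozygous and heterozygous ranges did not overlap at 1 of the 12, again Myo7a, beside 10.9% of all, or 5.01% lower and 5.93% higher. Myo7a passed the brightness filter only with its heterozygous arrays counted, as given below. Their differences had a median of 0.06 and ran between -0.49 and 0.31, with 7 above 0 and 5 below, while all tested probe sets had a median of 0.01 and 53.6% above 0. With arrays shifted to a common median, the median of the 12 was 0.02 and that of all tested probe sets -0.03. The median size of a difference, without its sign, was 0.09 for the 12 and 0.08 for all. These shares and medians lie near the background. Without homozygous 1 the median of the 12 was -0.0048. Probe sets without overlap numbered 2 of 12 without homozygous 1, 2 or 3, beside 19.1%, 17.9% and 21.6% of all in that order. They numbered 4 without the library labelled heterozygous 1, beside 22.2%, 2 without heterozygous 2, beside 20.5%, and 5 without heterozygous 3, beside 26.8%. Without the library labelled heterozygous 1, 0.111% of all probe sets passed adjustment and 0 of the 12.

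**Figure D1:**
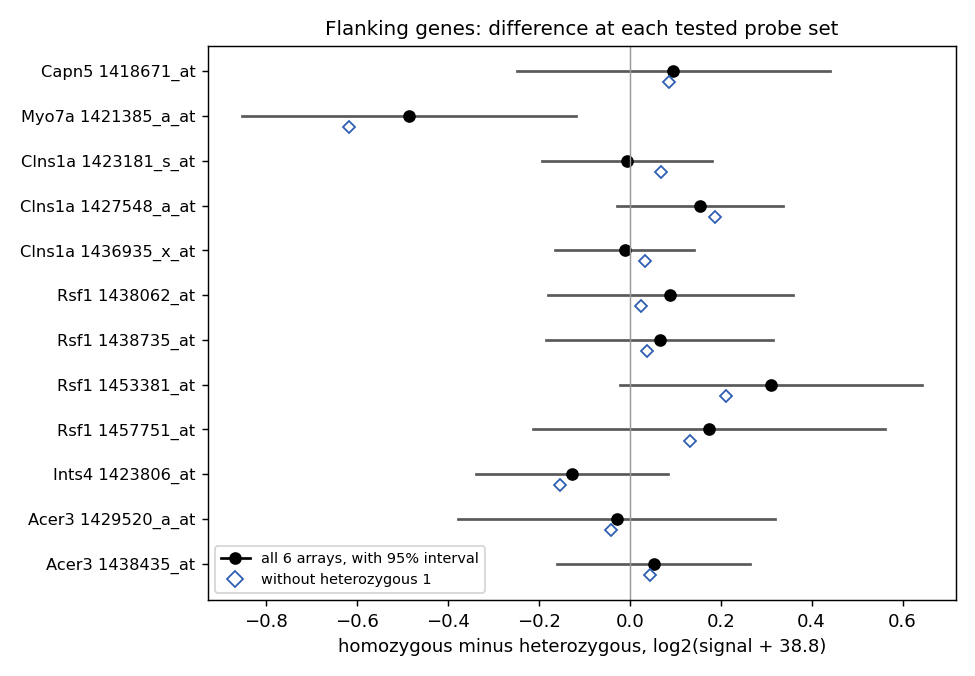
Difference between homozygous and heterozygous arrays at each of the 12 tested probe sets of the flanking genes, on the log2 scale with the offset of 38.8. Filled points use all 6 arrays and bars are 95% intervals from limma, unadjusted; open diamonds leave out the library labelled heterozygous 1. The interval of Myo7a, from -0.85 to -0.12, is the one that does not include 0.

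Myo7a encodes an unconventional myosin that moves along actin in the stereocilia of inner-ear hair cells and in the retina, and its loss causes deafness in shaker-1 mice and Usher syndrome in humans. Its only probe set, 1421385_a_at, read 162.4, 139.9 and 137.2 in homozygous arrays 1, 2 and 3. Heterozygous 2 and 3 read 277.4 and 215.8, and the library labelled heterozygous 1 read 176.8. All 3 homozygous arrays therefore lay below all 3 heterozygous arrays, and the library labelled heterozygous 1 lay closest to them.

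Homozygous arrays averaged 146.5 ± 13.8 for Myo7a, against 223 ± 50.7 for heterozygous ones (SD, n = 3 each). On the log2 scale the difference was -0.49 ± 0.17 (SE), a 1.40-fold lower signal in homozygous arrays, with an unadjusted p of 0.0143 and an adjusted p of 0.859 in limma. The 95% interval ran from -0.85 to -0.12. Of all tested probe sets, 93, or 0.413%, had a difference this low or lower. Myo7a is quoted as the largest difference of the flanking genes, and its SE was above the median of 0.11 over all tested probe sets. That share therefore does not measure how unusual the difference is. The difference does not pass adjustment over the array. Myo7a lay near the cut of the brightness filter, at the 52.8th percentile by mean signal. Its mean log2 signal was 7.53 in homozygous and 8.02 in heterozygous arrays, so the homozygous mean alone lay below the cut. In a fit of all probe sets without the filter, its limma p was 0.0217 unadjusted and 0.905 adjusted.

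The sign of the Myo7a difference was kept under all 15 alternatives that tested it, with values from -0.62 to -0.32 and adjusted p between 0.464 and 1.000. It was -0.62 without the library labelled heterozygous 1, with a limma adjusted p of 0.474. Without heterozygous 2 it was -0.34, and its unadjusted limma p, 0.0719, was no longer under 0.05. With the pooled median as offset it was -0.32. Among the marker lists, the summed signal of the 10 immature olfactory neuron markers separated the groups, with 0 of 10 higher in homozygous arrays. It ran from 57600 to 58168 in homozygous and from 60161 to 64039 in heterozygous arrays. The sum of the 8 vessel and stromal markers lay at 88892 to 90399 in homozygous against 85090 to 86950 in heterozygous arrays, with 8 of 8 higher. For the 8 microvillar cell markers the sums overlapped, at 2477 to 2726 in homozygous and 2392 to 2679 in heterozygous arrays, and for the 10 sustentacular markers at 83683 to 89110 and 80910 to 87407 in the same order. The sums of every other marker list overlapped as well, and no background share of such sums was computed. The part of these cell types in the signal of Myo7a was not tested.

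Capn5 encodes a calcium-dependent cysteine protease of the calpain family, and variants of the human gene cause an inflammatory disease of the retina and vitreous. Its brighter probe set, 1418671_at, read 243.6, 196.5 and 184.4 in homozygous arrays. In heterozygous arrays 1, 2 and 3 it read 188.4, 162.7 and 226.7. The groups overlapped, with the highest signal in homozygous 1 and the lowest in heterozygous 2. The difference was 0.10 ± 0.16 (SE), with a 95% interval from -0.25 to 0.44 and a limma adjusted p of 0.964. With 1 array left out it ran from -0.0047, without homozygous 1, to 0.20, without heterozygous 3, and it was 0.00052 without heterozygous 2 and 0.17 without homozygous 3.

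The dimmer Capn5 probe set, 1449165_at, read 134.4, 131.5 and 87.4 in homozygous and 74, 83.2 and 97.6 in heterozygous arrays. Homozygous 1 and 2 were the high samples, while homozygous 3 lay among the heterozygous arrays. The difference was 0.33, or 0.18 with the pooled median as offset, and in a fit of all probe sets without the filter its limma adjusted p was 0.905. Both probe sets of Capn5, the gene whose span contains Omp, thus had higher means in homozygous arrays and overlapping groups, the sign at 1418671_at turning without homozygous 1.

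**Figure D2:**
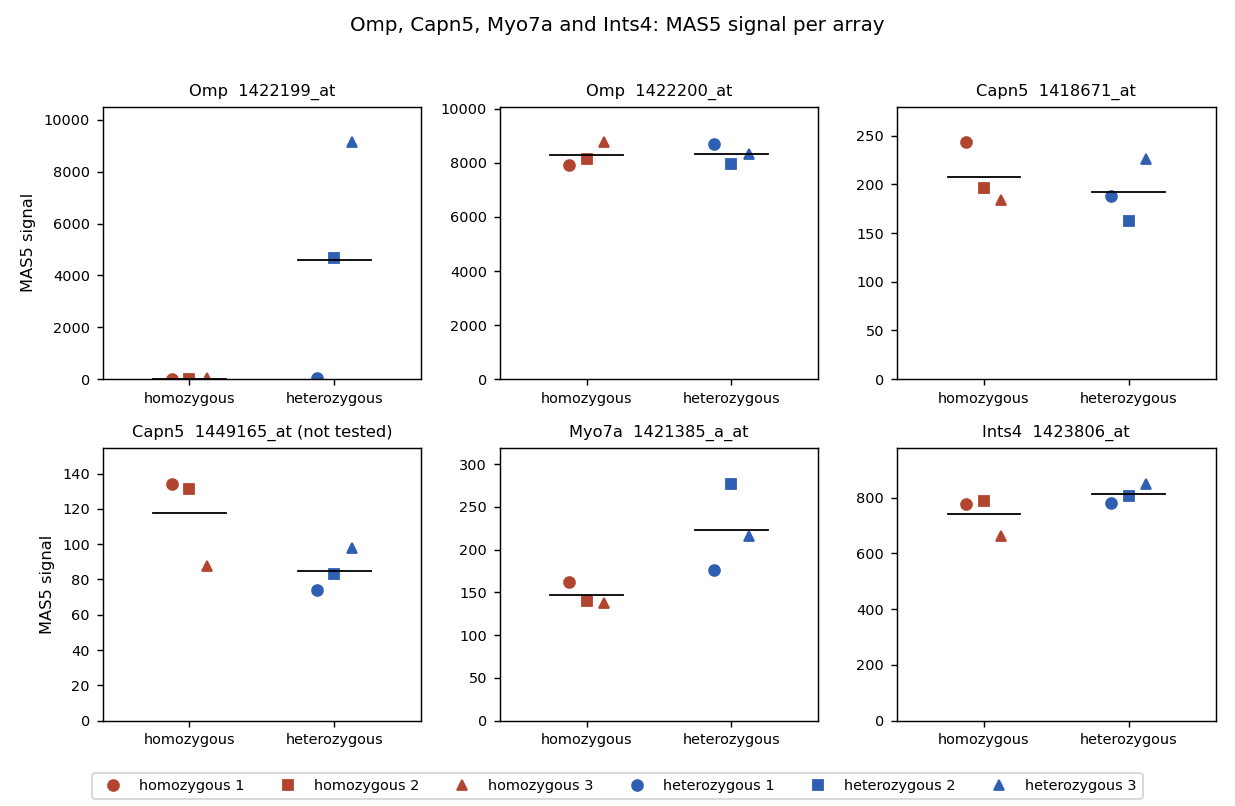
MAS5 signal per array, on a linear axis starting at 0, for Omp, Capn5, Myo7a and Ints4, with homozygous arrays on the left and heterozygous arrays on the right of each panel. Symbols are single arrays and horizontal lines are group means; "not tested" marks a dim probe set. At Omp 1422199_at the library labelled heterozygous 1 lies with the homozygous arrays, and at Myo7a the groups do not overlap.

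Clns1a, Rsf1 and Ints4 act in RNA processing or on chromatin. Clns1a encodes pICln, a chaperone that holds Sm proteins in the methylosome, in the cytoplasm, before they are assembled into spliceosomal small nuclear ribonucleoproteins. Its probe set of highest signal, 1436935_x_at, read 6455, 6083 and 6586 in homozygous and 6838, 6543 and 5917 in heterozygous arrays. At 1423181_s_at the signals were 1958, 1879 and 1805 in homozygous and 2097, 1802 and 1780 in heterozygous arrays. The groups overlapped at both, and the suffixes x and s mark probe sets that may read other transcripts too.

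The Clns1a differences were -0.01 ± 0.07 at 1436935_x_at, with a 95% interval from -0.16 to 0.14, and -0.01 ± 0.08 at 1423181_s_at, with an interval from -0.19 to 0.18 (SE). Both changed sign after quantile normalization, to 0.0086 and 0.0089. At 1427548_a_at Clns1a read 2294, 2177 and 1947 in homozygous against 2005, 1921 and 1816 in heterozygous arrays. Only homozygous 3 fell within the heterozygous range there, and the difference was 0.16 ± 0.08 (SE) with a limma adjusted p of 0.893. The 95% interval at 1427548_a_at, from -0.03 to 0.34, overlapped those of 1436935_x_at and 1423181_s_at. The probe sets of this gene were not tested against each other. The fourth, 1458906_at, was dim, ranged from 67.8 to 137.4 in homozygous and 66.1 to 131.1 in heterozygous arrays, and differed by 0.02. That value ran from -0.19 without the library labelled heterozygous 1 to 0.23 without homozygous 2.

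Rsf1 encodes the histone-binding subunit of the remodelling and spacing factor, which partners the ATPase encoded by Smarca5 to space nucleosomes. All 4 of its probe sets were tested and all had a higher mean in homozygous arrays, although 1438735_at turned to -0.0049 without homozygous 1. At 1453381_at the signals were 212.7, 281.4 and 239.2 in homozygous and 159.4, 194 and 215.8 in heterozygous arrays. Heterozygous 3 lay just above homozygous 1 there, the only overlap between the groups. The difference was 0.31 ± 0.15 (SE), with a 95% interval from -0.02 to 0.64 and a limma adjusted p of 0.887.

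The other Rsf1 probe sets had smaller differences. At 1457751_at the signals were 346.3, 380.2 and 306.5 in homozygous and 280.7, 231.4 and 410.8 in heterozygous arrays, a difference of 0.17 ± 0.17 (SE). At 1438062_at they were 524, 635.3 and 623.9 in homozygous and 502.6, 518.2 and 653 in heterozygous arrays, a difference of 0.09 ± 0.12 (SE). At 1438735_at the homozygous arrays read 439.2, 383.6 and 364 and the heterozygous arrays 359.7, 358.1 and 409.5, a difference of 0.07 ± 0.11 (SE). Heterozygous 3 was the highest heterozygous array at every Rsf1 probe set. Limma adjusted p values of these 3 lay between 0.925 and 0.968.

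The Rsf1 differences changed with the array left out. Without heterozygous 3 they were 0.39 at 1453381_at, 0.38 at 1457751_at, 0.20 at 1438062_at and 0.12 at 1438735_at, and the groups did not overlap at any of the 4, where 26.8% of all tested probe sets did not overlap. Their lowest limma adjusted p was then 0.458. Heterozygous 3 is the array with the highest sum of bulb and brain neuron markers and the lowest of mature olfactory neuron markers. Neither list moved together, as given above. The part of such cells in the Rsf1 signal was not tested. Without homozygous 1 the difference at 1453381_at was 0.39 as well, and that at 1438062_at was 0.17. Without heterozygous 2 the difference at 1457751_at was 0.01, and without the library labelled heterozygous 1 those at 1438062_at and 1438735_at were 0.02 and 0.04. With the pooled median as offset, 1453381_at and 1438735_at differed by 0.21 and 0.05.

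**Figure D3:**
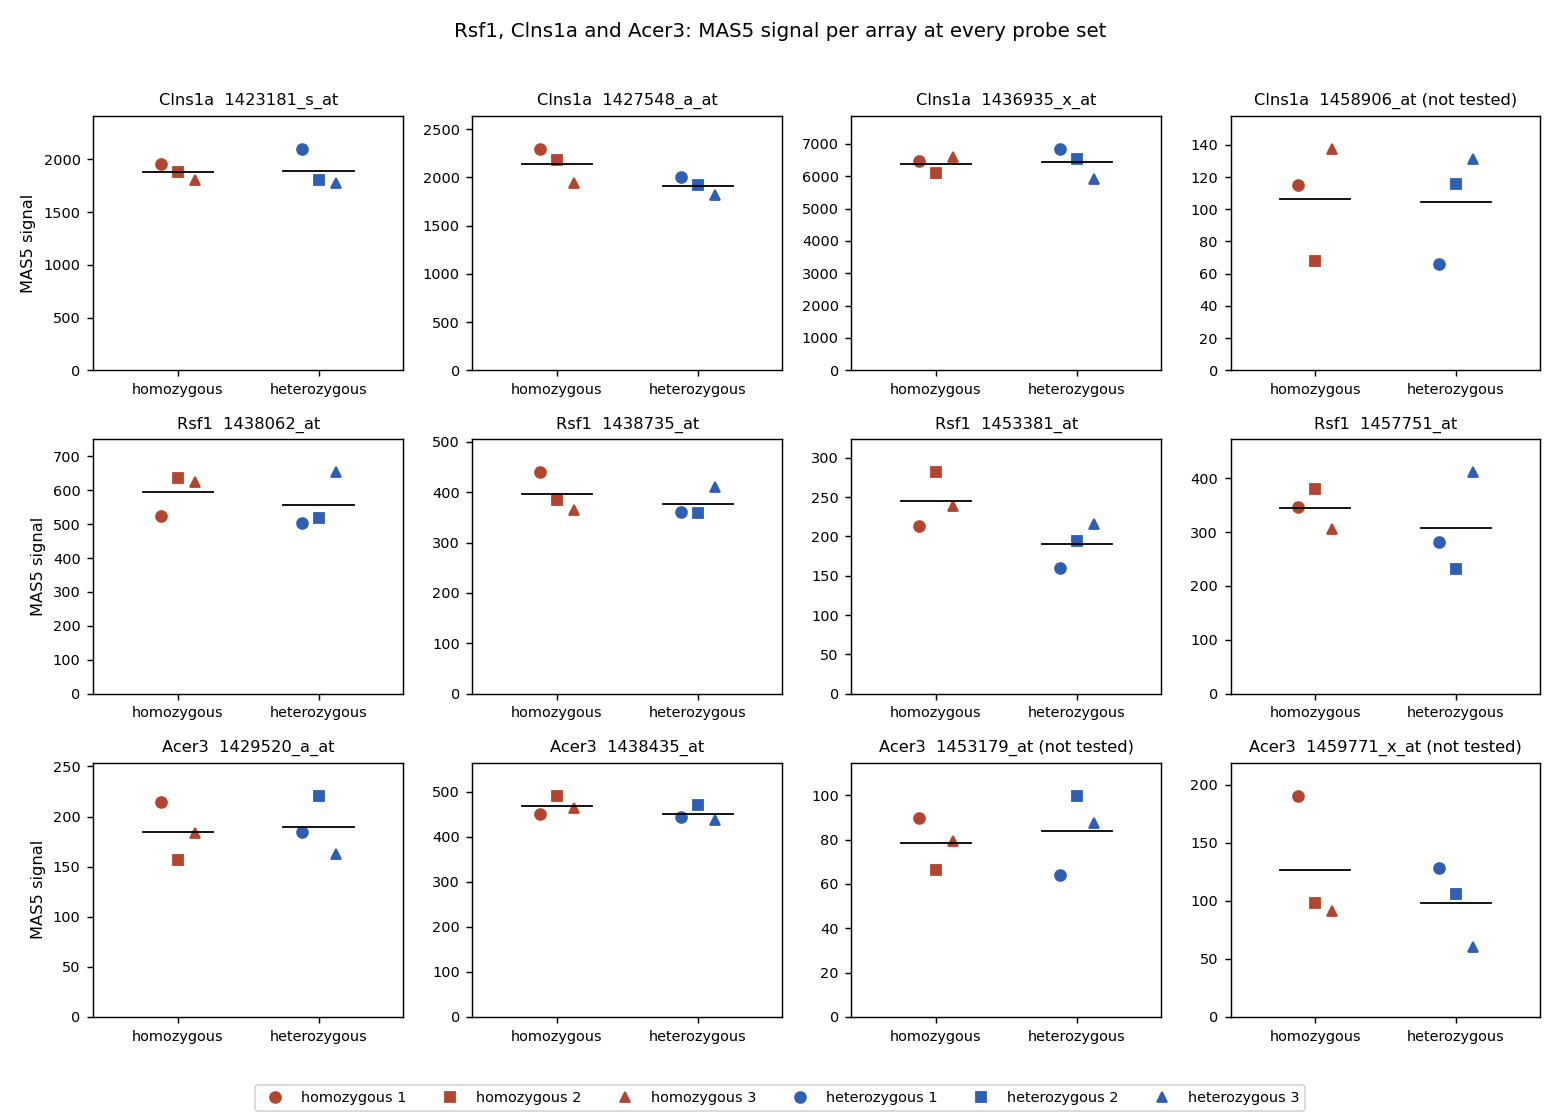
MAS5 signal per array at every probe set of Clns1a, Rsf1 and Acer3, on linear axes starting at 0, with homozygous arrays on the left and heterozygous arrays on the right of each panel. Symbols are single arrays, lines are group means, and "not tested" marks dim probe sets. Heterozygous 3 (triangle) is the highest heterozygous array in the 4 panels of Rsf1.

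Ints4 encodes a subunit of Integrator, the complex that cleaves nascent small nuclear RNAs and attenuates transcription of other genes. Its probe set 1423806_at read 777.5, 788.1 and 662.5 in homozygous and 782.1, 805.3 and 850.7 in heterozygous arrays. Homozygous 3 was lowest, and homozygous 2 lay above the library labelled heterozygous 1. Homozygous arrays averaged 742.7 ± 69.7, against 812.7 ± 34.9 for heterozygous ones (SD, n = 3 each). On the log2 scale this was -0.13 ± 0.10 (SE). The 95% interval ran from -0.34 to 0.08 and the limma adjusted p was 0.911. Without homozygous 3 the difference was -0.05.

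Acer3 and B3gnt6 encode enzymes of lipid and sugar metabolism. Acer3 is an alkaline ceramidase, which splits long-chain unsaturated ceramides into sphingoid base and fatty acid. At its brightest probe set, 1438435_at, it read 451.4, 490.8 and 464.4 in homozygous and 444, 471.3 and 436.3 in heterozygous arrays. At 1429520_a_at the homozygous arrays read 214.8, 156.2 and 183.8 and the heterozygous arrays 184.2, 220.7 and 163. The groups overlapped at both.

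The Acer3 differences were 0.05 ± 0.10 at 1438435_at, with a 95% interval from -0.16 to 0.27, and -0.03 ± 0.16 at 1429520_a_at, with an interval from -0.38 to 0.32 (SE). The limma adjusted p was 0.970 and 0.993 in that order. With 1 array left out, 1438435_at ran from 0.02 without homozygous 2 to 0.08 without heterozygous 2, and with arrays shifted to a common median it was 0.01. At 1429520_a_at the sign turned, to 0.07, without homozygous 2 and without heterozygous 2. Of the dim probe sets, 1453179_at ranged from 66.4 to 89.8 in homozygous and from 64.1 to 99.8 in heterozygous arrays, and 1459771_x_at from 91.5 to 190.6 and from 60.1 to 128.5. B3gnt6, the core 3 synthase of mucin-type O-glycans, had 1 probe set, 1456680_at, with signals of 17.8, 30 and 18.9 in homozygous and 28.4, 36.9 and 6.5 in heterozygous arrays. All 6 lie below the offset, at the 17.2th percentile of probe sets by mean, and the groups overlapped. With both groups below it, no difference is given.

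Signals were next set along the gene order around Omp. The 10 protein-coding genes on each side held 25 tested probe sets of 14 genes, members of the list included, with a median difference of -0.02 and a median size of 0.09. Of these 1, Myo7a, had an unadjusted p under 0.05, or 4%. Genes at 11 to 25 places held 30 tested probe sets with a median of -0.03 and 4, or 13.3%, at that level. At 26 to 50 places there were 53 with a median of -0.01 and 5.66%, at 51 to 100 places 54 with a median of 0.0030 and 5.56%, and on the rest of the chromosome 1084 with a median of -0.0029 and 5.17%. The share over all tested probe sets was 5.73%, and 0 probe sets passed adjustment in any of these windows. The share was thus highest at 11 to 25 places and below that of all probe sets in the nearest 10. Shares in the nearer windows rest on few probe sets, several of which read the same gene.

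Among the 25 genes on each side that are not on the list, Ndufc2, Prcp and Pcf11 had the lowest p. Ndufc2, a subunit of respiratory complex I at 12 places, read 4782, 4218 and 5021 in homozygous against 5333, 6046 and 6194 in heterozygous arrays at 1416366_at. The groups did not overlap, and the difference was -0.32 ± 0.08 (SE) with an unadjusted p of 0.00264 and an adjusted p of 0.859 in limma. Its other tested probe sets, 1455036_s_at and 1460506_s_at, both differed by -0.05 with overlapping groups, and ran from -0.11 to -0.01 with 1 array left out. Prcp, a lysosomal carboxypeptidase at 21 places, differed by 0.27 ± 0.09 at 1452190_at and 0.21 ± 0.10 at 1452191_at (SE), with no overlap between groups at either. Its limma adjusted p values were 0.859 and 0.869. Pcf11, a subunit of the pre-mRNA cleavage machinery at 24 places, differed by 0.22 at 1427159_at, -0.11 at 1428724_at and -0.03 at 1427160_at. Kctd14 at 10 places, chosen after its values were seen, had a wider spread: its dimmer probe set read 214.3, 98.1 and 97.5 in homozygous against 158.2, 205.3 and 218.2 in heterozygous arrays, a difference of -0.46 ± 0.24 (SE) with overlapping groups and a limma adjusted p of 0.890.

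**Figure D4:**
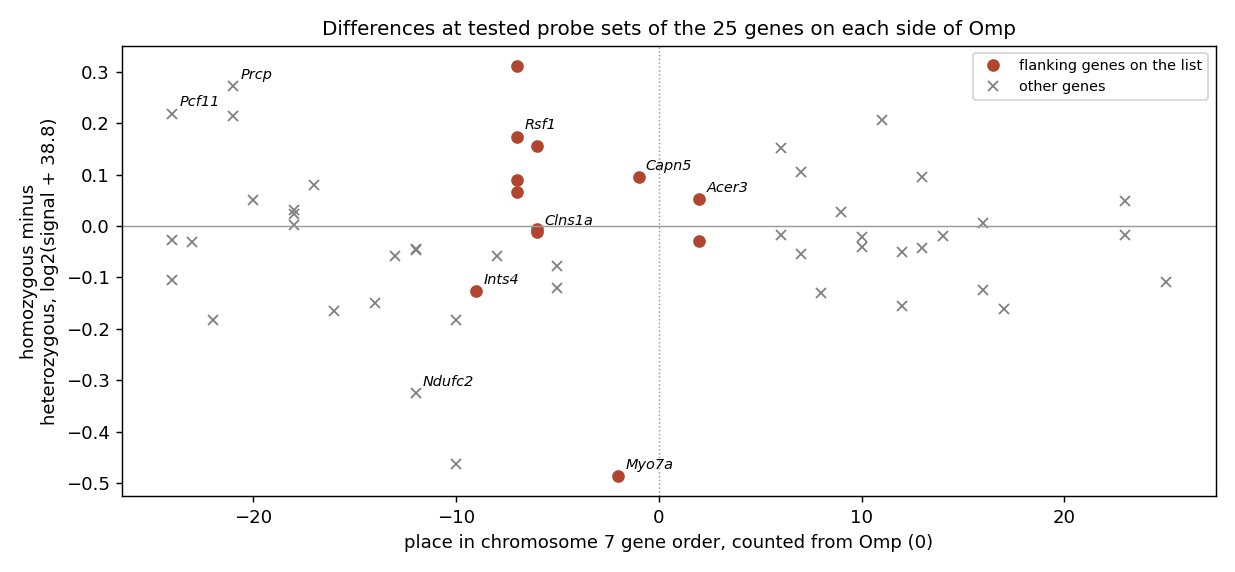
Difference between homozygous and heterozygous arrays, on the log2 scale with the offset of 38.8, at tested probe sets of the 25 protein-coding genes on each side of Omp, plotted by place in the gene order. Filled circles are flanking genes on the list and crosses are other genes. Myo7a, 2 places before Omp, lies lowest at -0.49, and Capn5, beside Omp, lies at 0.10.

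Partners and relatives of the flanking genes were then examined, at the brightest tested probe set of each gene. Of 154 listed genes, 113 were tested and 0 passed adjustment in limma, beside 0% of 11426 genes. At an unadjusted p under 0.05 there were 6, or 5.31%, beside 4.81% of all genes, and the groups did not overlap at 11, or 9.73%, beside 10.3% of all. The median difference of the 113 was -0.02, against -0.00041 over all genes. These shares were near the background.

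Partners of Myo7a in hair-cell links and other unconventional myosins had 6 tested members, 3 higher and 3 lower, with a median of 0.03. Myo10, the filopodial myosin, differed by 0.13 ± 0.10, and Myo6, the myosin that moves towards the minus end of actin, by -0.06 ± 0.07 (SE). Myo10 was at 0.09 without homozygous 1 or without heterozygous 2, and Myo6 at -0.01 without homozygous 2. Of the 8 tested calpains and calpain regulators, 5 were higher, with a median of 0.02. Capn15 differed by 0.11, or 0.07 without heterozygous 2, and Capns1, the small regulatory subunit, by 0.02, the latter turning to -0.027 once arrays were shifted to a common median. None of these genes had an unadjusted p under 0.05 in limma.

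Relatives of Rsf1, Clns1a and Ints4 gave small medians. Of 12 tested partners of Rsf1 in Iswi-type remodelling, 9 were lower, with a median of -0.05. The histone deacetylase gene Hdac1 differed by -0.25 ± 0.09 (SE; limma unadjusted p of 0.0196, adjusted p of 0.859), and Rbbp4, a histone chaperone, by -0.01, or 0.0083 after quantile normalization. Of 15 tested partners of Clns1a in the methylosome and in assembly of small nuclear ribonucleoproteins, 9 were lower, with a median of -0.04. Gemin5, which binds small nuclear RNA, differed by 0.26 ± 0.12 and the Sm protein gene Snrpe by -0.08 ± 0.06 (SE), or -0.13 without heterozygous 3. The 16 integrator subunits other than Ints4 had a median of 0.01, with 9 higher. Sem1 differed by -0.06 and Ints6 by 0.02, or -0.023 with arrays shifted to a common median.

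Lists around Pak1, Gdpd4 and Tsku stand in for genes that were themselves not measured here. Of 19 tested Pak kinases and Rac or Cdc42 partners, 12 were lower, with a median of -0.03. Rac2, the blood-cell Rac, differed by 0.31 ± 0.14 and Cfl1, the actin-severing cofilin, by -0.02 ± 0.06 (SE). Without heterozygous 3 the Rac2 difference was 0.18. All 11 blood and immune markers, counting Hba-a1, had a higher mean in homozygous arrays, with a mean log2 difference of 0.32. Hba-a1 lay below the offset on every array and was not tested. The summed signal of the 11 overlapped, at 14998 to 20083 in homozygous and 15404 to 16176 in heterozygous arrays. The part of such cells in Rac2 was not tested. The 4 tested glycerophosphodiester phosphodiesterases had a median of 0.01, with Gpcpd1 at 0.21 and Gde1 at 0.04. Without the library labelled heterozygous 1, Gpcpd1 was at 0.06 and Gde1 at 0.09, and Gde1 was at -0.025 without heterozygous 3. Of 10 tested small leucine-rich proteoglycans, 8 were higher, with a median of 0.12, and Bgn differed by 0.16 ± 0.07 and Dcn by 0.14 ± 0.07 (SE). Dcn was at 0.07 without heterozygous 3 and 0.21 without heterozygous 2. The limma adjusted p of Bgn was 0.862, and the vessel and stromal markers given above were higher in homozygous arrays too; their part was not tested.

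Enzymes related to Acer3 and B3gnt6 completed the set. Of 10 tested ceramidases, ceramide synthases and related enzymes, 4 were higher, with a median of -0.03. The neutral ceramidase gene Asah2 differed by 0.25 ± 0.13, or 0.17 with the pooled median as offset, and Cers5 by 0.02 ± 0.08 (SE), the latter turning to -0.023 with arrays shifted to a common median. Of 13 tested O-glycan and N-acetylglucosaminyl transferases and a chaperone, 6 were higher, with a median of -0.02. The sialyltransferase gene St6galnac1 read 367.1, 330.6 and 374.8 in homozygous against 306.1, 192.8 and 174.5 in heterozygous arrays, a difference of 0.62 ± 0.17 (SE) with a limma adjusted p of 0.859. C1galt1c1, the chaperone of core 1 synthase, differed by -0.07, or -0.01 without heterozygous 2 and -0.13 without heterozygous 3.

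The genes whose pattern over the 6 arrays was most like that of Myo7a were Usp3, Dhx35 and Mzt1. Their Pearson r with Myo7a was 0.988, 0.981 and 0.979 and their Spearman rho 0.943, 0.986 and 0.943. Without heterozygous 2 and 3, the arrays farthest from the median, r was 0.959, 0.983 and 0.904. For Capn5 at 1418671_at they were Rcn2, Bhlhe41 and Usp7, with r of 0.997, 0.984 and 0.982 and rho of 1. These were the highest of 11425 genes ranked, of which 65 had an r above 0.9 with Myo7a and 63 with Capn5, so they carry no p and describe these 6 arrays. Each gene was ranked at its brightest tested probe set only, and the genes named include no flanking gene. Rsf1 at 1438735_at, a probe set that was not ranked, resembled Capn5. Both were highest in homozygous 1, then in heterozygous 3, and lowest in heterozygous 2.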

How the data were processed

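Per the submitters' processing notes, the authors made the deposited intensity values with MAS5, on a linear scale; no version or setting is named. Each array had a 2% trimmed mean of 500.002, so no further scaling was applied. In the platform annotation 34958 probe sets had 1 gene, 932 had several and 9211 had none. Gene order came from RefSeq assembly GRCm38.p6, while no build is given for the values. Differences were fitted in R 4.3.3 with limma 3.58.1 (lmFit, then eBayes with a trend on mean intensity) on log2(signal + 38.8), over the 22514 probe sets at or above the median log2 signal after 64 controls were set aside. There were 4 residual degrees of freedom, and the median SE was 0.11.

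The flanking genes and the lists were chosen with earlier results of these data known. The genes named were every flanking gene at every probe set, the lowest p and the highest signal of each list, the 3 neighbours of lowest p, and the 3 genes most correlated with Capn5 and with Myo7a. The largest number of identical values between 2 arrays was 101 of 45101. The fit was tested on simulated data. Alternatives covered the offset, normalization, filter, variance model, threshold, probe set averaging, the replicate block and each array left out.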

Additional observations from a re-analysis of the deposited data

How the results depend on the processing

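There were 17 alternatives, and under all of them 0 flanking probe sets passed. Of the 42 probe sets named and tested, 29 kept their sign in every alternative that tested them and 13 did not; 27 turned or moved by over 1.5 times when 1 array was left out. Of the 5 dim flanking probe sets, which were not tested, 4 changed sign in at least 1 alternative: B3gnt6, Clns1a 1458906_at, Acer3 1453179_at and Acer3 1459771_x_at. The number of all probe sets called was 1 with the pooled median as offset (1455869_at, with no single gene named), and 0 to 25 with 1 array left out: 25 without the library labelled heterozygous 1, and 1 each without homozygous 2 (1455869_at again) and homozygous 3 (Mtmr7). Omp at 1422199_at was among the 25, at -6.96 with a limma adjusted p of 4.9e-06. Over all arrays it differed by -4.74 ± 1.38 (SE) with a limma adjusted p of 0.859. The library left out was the one set apart by this same probe set, so that call is no separate evidence. Mtmr7 and 1455869_at, chosen after their values were seen, are not flanking genes. The partner genes called were 0 to 1 with 1 array left out, the 1 being Gcnt1 without the library labelled heterozygous 1, at -1.12 with a limma adjusted p of 0.0394; over all arrays it differed by -0.70 with an adjusted p of 0.859.

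Flanking probe sets whose groups did not overlap numbered 3 after quantile normalization and 3 with arrays shifted to a common median (Myo7a, Ints4 and Rsf1 at 1453381_at; 10.7% and 11.2% of all probe sets), 0 with the filter at the 75th percentile, which kept 4 of them, and 2 to 5 with 1 array left out, where 17.9% to 26.8% of all did not overlap. Without the library labelled heterozygous 1 they were 4 and without heterozygous 3 they were 5. Their median difference was -0.0085 at the 75th percentile and -0.0048 to 0.075 with 1 array left out.

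Signs turned after quantile normalization at Omp 1422200_at (0.0054), Clns1a 1423181_s_at (0.0089) and 1436935_x_at (0.0086) and Rbbp4 (0.0083), and with arrays shifted to a common median at Capns1 (-0.027), Cers5 (-0.023) and Ints6 (-0.023). With 1 array left out, values ran from -0.052 to 0.023 at Omp 1422200_at, -0.0047 to 0.20 at Capn5 1418671_at, -0.047 to 0.069 at Clns1a 1423181_s_at, -0.070 to 0.034 at 1436935_x_at, -0.0049 to 0.12 at Rsf1 1438735_at and -0.12 to 0.069 at Acer3 1429520_a_at. They ran from -0.085 to 0.12 for Capns1, -0.070 to 0.092 for Cers5, -0.052 to 0.0086 for Cfl1, -0.025 to 0.092 for Gde1, -0.060 to 0.077 for Ints6, -0.084 to 0.065 for Pcf11 1427160_at and -0.035 to 0.016 for Rbbp4. The cause was not tested. The labels do not say whether the replicate numbers pair the samples. Same-numbered deviations correlated at 0.02, -0.12 and -0.05, and the other combinations ran from -0.07 to 0.13. No pair effect was visible, but such values cannot settle whether the samples were paired. With the replicate block, 0 of all probe sets passed and the median of the flanking probe sets was 0.06; it changed no call, and 1106 probe sets had an unadjusted p under 0.05, against 1291 without it. That count was 2456 with no filter, 585 with the filter at the 75th percentile, 750 without homozygous 2 and 2099 without heterozygous 3. Capn5 at the mean of its probe sets fell below the filter and was not tested that way.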
